A study of Caenorhabditis elegans with 6 samples.

Results

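Runs of closely spaced binding regions of UNC-55::GFP were examined in Caenorhabditis elegans at the second larval stage (L2), as mapped by ChIP-seq. A run was defined as at least 3 regions of the combined list, each narrower than 1500 bp, in which every region started at most 1000 bp after the end of the one before. Of the 8836 combined regions, 8534 were under the width limit, and 923 of these (10.8%) fell into 268 runs. The other 7611 regions under the limit comprised 1754 in pairs and 5857 with no other such region within 1000 bp. Below, the latter are called regions with no close neighbour, although a broad region outside the limit may lie near them. Members were chosen by their start and end positions in the combined list, so the number, spacing and span of the runs are a description.

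UNC-55 belongs to the COUP-TF family of nuclear receptors, transcription factors that bind DNA through a zinc-finger domain at short hormone-receptor half-sites and often act as repressors. In the ventral cord of the worm it is known for keeping the VD class of GABA motor neurons from taking on the synaptic pattern of the DD class. Clusters of neighbouring binding regions are commonly seen for transcription factors at large regulatory domains, where several short elements lie within a few kilobases. A peak caller can also divide 1 stretch of enriched chromatin into several calls, or join several elements into 1.

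All samples were hermaphrodites of strain NC1639, which carries the integrated transgene wdIs49 (pttr39::UNC-55a::GFP; dpy-20+) on chromosome III and had not been outcrossed, per the labels. The ttr-39 promoter drives the fusion in GABA neurons of the ventral cord, other cells show some ectopic signal per the labels, and chromatin came from lysed whole worms. The series held 3 ChIP samples, precipitated with antibodies to GFP, and 3 input samples of the same transgenic worms. There was no untagged or otherwise treated group, the title of the series names another factor and stage, and nothing in the labels says that the replicates were separate cultures, so their spread may be technical. The combined list and 1 list for each ChIP replicate were analysed, all on WormBase WS220, with 6805, 4909 and 2803 peaks in replicates 1, 2 and 3. These lists give no read counts, so the depth behind a region is unknown, and the gene table at hand is on another assembly, so no gene is named.

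Most runs were short. Exactly 3 regions made up 188 runs, 4 regions made up 54, 5 regions 17 and 6 regions 7, and there was 1 run of 7 and 1 of 9. A run spanned between 1174 and 8771 bp, with a median of 3063 bp and quartiles of 2491 and 3880 bp. Called regions covered 60.4% of the 883 kb within runs, and between 21.5% and 87.0% of a single run. The 655 gaps inside runs had a median of 502 bp, with quartiles of 322.5 and 739 bp and a largest value of 994 bp. No neighbouring calls lay closer than 202 bp in the combined list, or than 202, 203 and 204 bp in replicates 1, 2 and 3. The first gap beyond the limit measured 1002 bp, and the widest member, at 1491 bp, stood beside a narrowest excluded region of 1501 bp. At the other extreme 29 members were narrower than 100 bp, and 1 of these was overlapped by a peak in any replicate. Regions this narrow made up 3.14% of members and 4.07% of the other regions under the limit, so they were not more common in runs. How often narrow regions outside runs were overlapped was not examined, so the low recovery is not read as a trait of runs.

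**Figure D1:**
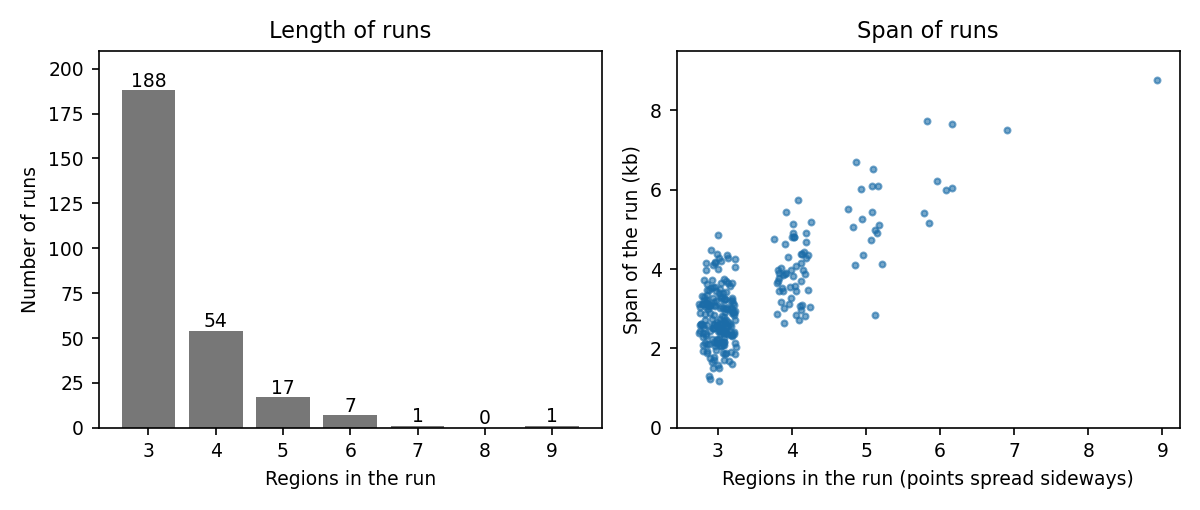
Left, number of runs (bars, vertical axis) by the number of regions in the run (horizontal axis). Right, span of each of the 268 runs in kb (vertical axis) against its number of regions, 1 point per run. Runs of 3 make up 188 of the total, and the run of 9 on chromosome III spans 8771 bp.

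The longest run lay on chromosome III from 6073490 to 6082260 and held 9 regions. Its best-scored member, in the middle of the run at 6077953 to 6079032, held rank 1842 of the combined list by the caller's own value, and its median rank was 5624. Replicate 1 had a peak at 5 of the 9 regions, replicate 2 at 4 and replicate 3 at 2. The pair found in all 3 replicates were that member and the one at 6074869 to 6075543, of rank 2511.

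On chromosome I the longest run held 7 regions from 9796396 to 9803887. Its second member, at 9797672 to 9798720, held rank 273, while the other 6 ranked between 2131 and 7764. A peak was found at 5 members in replicate 1, at 5 in replicate 2 and at 2 in replicate 3. Its small members of 165 and 137 bp were missing from every replicate.

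The 7 runs of 6 regions were on chromosomes I, II, III, V and X. The run on III from 8876819 to 8882848 held the best-scored region among them, at 8880091 to 8881228, of rank 109. That region ranked 131, 106 and 158 in replicates 1, 2 and 3, whereas 3 of its 5 neighbours had no peak in any replicate. On X, all 6 regions from 16997050 to 17004714 had a peak of their own in replicate 1, against 2 in replicate 2 and 0 in replicate 3. Another on X, from 4895996 to 4903715, had peaks at 5, 4 and 0 members. On II, the run from 9897758 to 9902907 had peaks at 4 members in replicate 1 and at 0 in the others, and the run from 12018667 to 12024068 at 3, 1 and 0. The run on V from 1361902 to 1368123 had peaks at 5, 3 and 1 members, and the one on I from 12167502 to 12173498 at 3, 3 and 1. On chromosome IV no run exceeded 4 regions. The best-scored of that length there, from 7400582 to 7405500, had peaks at 4, 3 and 1 members.

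**Figure D2:**
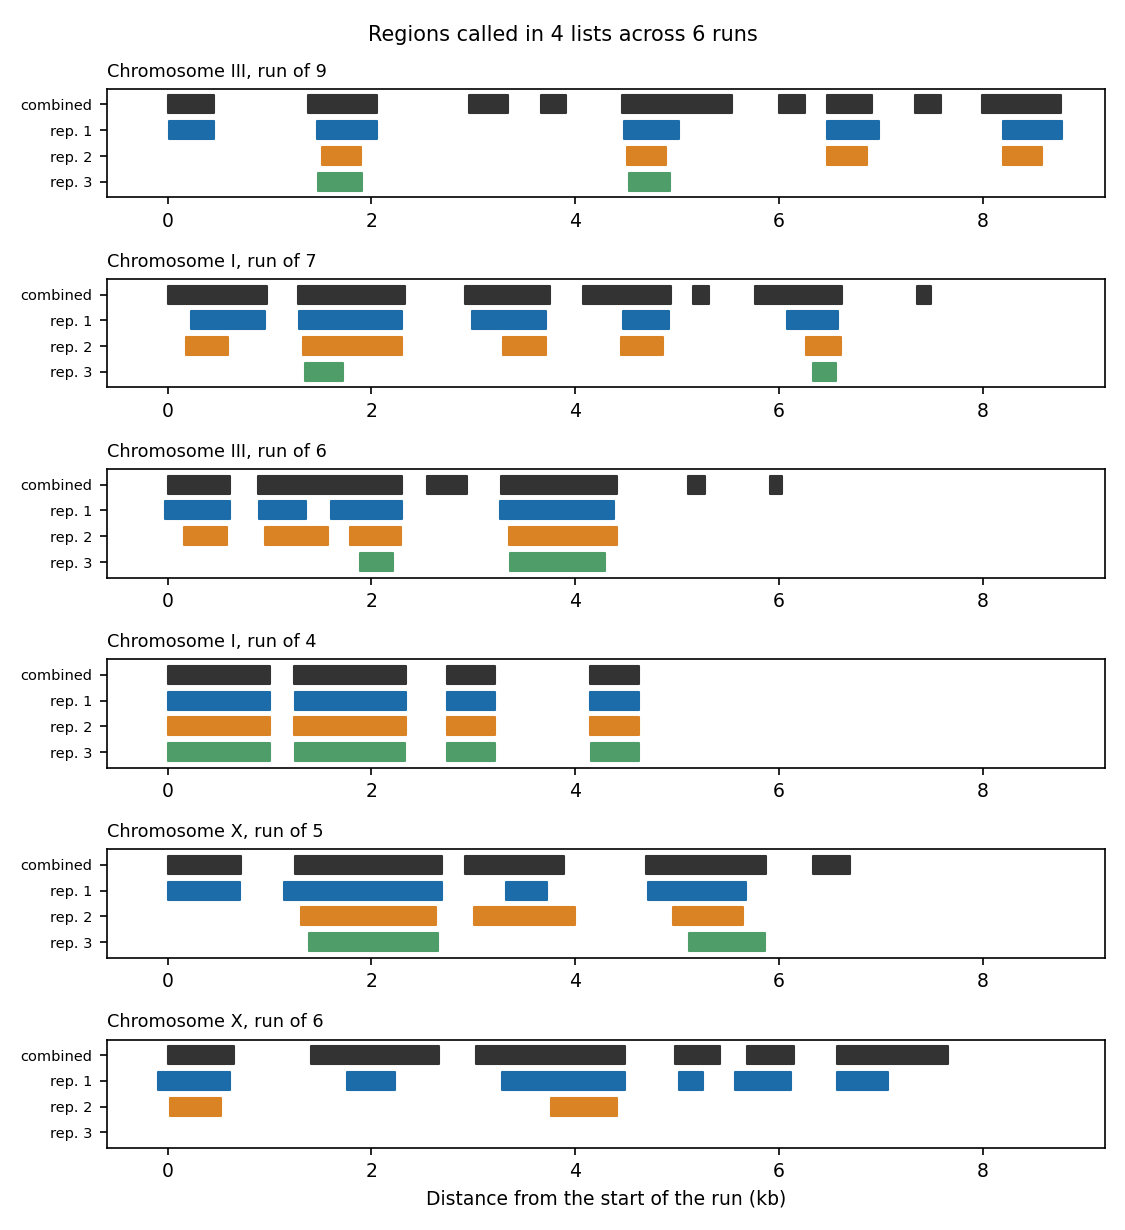
Regions called in the combined list (dark bars) and in replicates 1, 2 and 3 (blue, orange and green bars) across 6 runs, against the distance in kb from the start of the run. In every run but the run of 4, at least 2 replicates lack a counterpart of some combined regions, and replicate 1 has a peak at all regions of the run of 6 on X. The 4 regions of the run of 4 on chromosome I have matching edges in all lists.

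Ranks within a run were uneven. Regions were ranked by the caller's value in the combined list, the list that also defined the runs, so these ranks are given without a test. Members of runs had a median rank of 4912, against 4830.5 for regions in pairs, 4430 for regions with no close neighbour and 313.5 for the 302 excluded regions of 1501 bp or more. The better-scored 50% of the combined list held 415 members, or 45.0%, against 48.3% of all regions under the width limit. Among the best 1000 were 89 members, or 9.64%, against 9.1% of all regions under the limit. Among the best 100 were 5 members, or 0.54%, against 26 of the other regions under the limit, or 0.34%. These counts are small. The best-scored member of a run had a median rank of 1999, the next 4630 and the one after that 6506, an order that the ranking itself fixes. In 211 runs members fell on both sides of the middle of the list, in 21 all lay in the better-scored 50% and in 36 none did. A region among the best 1000 was present in 79 runs, at least 2 such regions in 10 runs, and no run consisted wholly of them.

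The best-scored members of all were on V and X. On V, the middle region of the run from 15069427 to 15073479 held rank 31 of the combined list and ranks 24, 42 and 27 in replicates 1, 2 and 3. Its flanking regions ranked 5170 and 4565, lay 320 and 254 bp away, and had no peak in replicate 3. On X, the second of 5 regions from 15605280 to 15611982 held rank 45, and ranks 52, 43 and 40 in the replicates, beside neighbours ranked between 2899 and 8636. The second region of the run on V from 11640466 to 11644538 held rank 63, and ranks 58, 66 and 48. In that run the narrow regions of 175 and 211 bp had no peak in any replicate, while the last region, of rank 973, was found in all 3. On V again, the broadest region of the run from 1149754 to 1153277 held rank 73, and ranks 47, 124 and 63. The 10 runs with the best-scored members also included those on I from 3647004 to 3651147, on II from 11632699 to 11637509 and on IV from 6834499 to 6839694. The IV run had a last region of rank 126, and none of its other 3 regions ranked better than 4491. The best-scored member had no preferred place: in runs of 3 it was at an end in 127 of 188 (67.6%), where 66.7% of places are ends, and in runs of 4 in 24 of 54 (44.4%, ends being 50% of places). It was also broader, at a median of 717.5 bp, while the 655 other members had a median of 432 bp, and was the widest of its run in 168 of 268. Widths of regions of like rank outside runs were not compared, so this is not read as a trait of runs.

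Replicate lists were compared with the runs to ask whether neighbouring regions are also called as separate regions in single libraries. A member counted as found when a replicate peak overlapped it by at least 1 bp. Replicate 1 had 655 of the 923 members (71.0%, exact 95% interval 67.9 to 73.9%), against a background of 72.7% of all regions under 1500 bp. In replicate 2 the count was 472 (51.1%, interval 47.9 to 54.4%), against 51.9%. In replicate 3 it was 234 (25.4%, interval 22.6 to 28.3%), against 28.7%. At this overlap the shares for members were thus near the background, and the order of the replicates followed the length of their lists. Compared with the other regions under the limit, the share of members found differed by -1.96, -0.88 and -3.70 percentage points in replicates 1, 2 and 3. Regions in pairs, which also have a close neighbour, were found at 71.3%, 47.7% and 25.3%, and regions with none at 73.4%, 53.3% and 30.2%. The share for members was thus close to that of pairs in replicates 1 and 3 and above it in replicate 2. Against all other regions, the mean difference was -2.18 ± 1.42 points (SD, n = 3, exact two-sided sign-flip permutation p = 0.25, the smallest that 3 replicates allow). The gap was wider when a replicate peak had to cover at least 50% of a region. The mean share of members found was then 41.5%. Their mean difference from the other regions was -6.50 ± 1.77 points, negative in each replicate (SD, n = 3, same permutation test, p = 0.25). Recovery near the background thus holds for the 1 bp overlap only. At 1 bp, 221 members, or 23.9%, were found in all 3 replicates, against 27.6% of all regions under the limit, and 233, or 25.2%, in none, against 25.2%. Intervals cover counting error and treat regions as independent. How the combined list was made from the replicates is not stated, so the lists cannot be taken as independent.

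The difference at an overlap of 1 bp was smaller among regions of like score. In the best-scored of 5 equal rank classes, members and other regions were both found at 100% in replicates 1 and 2, and at 89.3% and 90.8% in replicate 3. In the next class the shares in replicate 3 were 37.2% for members and 44.1% for other regions, the widest difference of any class and replicate. Within the worst-scored class, 11.7% of members and 12.0% of other regions were found in replicate 1, 2.66% and 0.99% in replicate 2, and 0% and 0.20% in replicate 3. Averaged over the 5 classes, members differed from the others by -0.82, +0.77 and -2.14 points in replicates 1, 2 and 3. Replicate 2 therefore changed sign, and the exact sign-flip permutation p was 0.5.

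**Figure D3:**
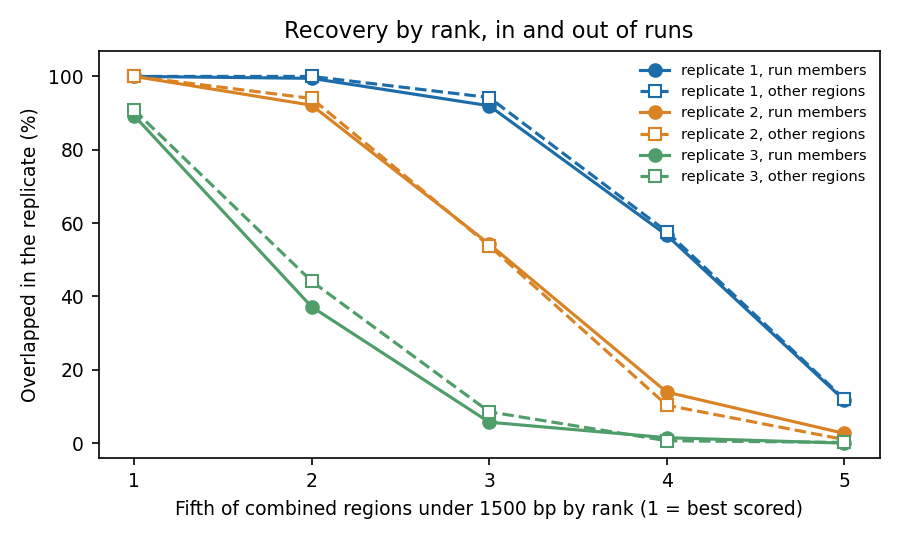
Percentage of combined regions under 1500 bp overlapped by a replicate peak (vertical axis) in 5 equal classes of combined rank (horizontal axis, 1 = best scored), for run members (filled circles, solid lines) and other regions (open squares, dashed lines). The lines of each replicate run close together, and the widest difference is in the second class of replicate 3, at 37.2% against 44.1%.

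In the replicates, runs lacked a peak at some members more often than 1 peak touched at least 2 members. Members were selected as separate regions under 1500 bp in the combined list, and the replicate lists are shorter. The counts below are therefore a description, and no such shares for pairs stand beside them. A run was called separate in a replicate when every member had a peak and no peak touched more than 1 member, joined when 1 peak touched at least 2 members, partial when some members had no peak, and absent when none had one. In replicate 1, 87 runs were separate, 5 joined, 171 partial and 5 absent. The counts for replicate 2 were 29, 4, 206 and 29, and for replicate 3 they were 6, 1, 158 and 103. As shares of the 268 runs, 15.2 ± 15.6% were separate (SD, n = 3), 1.24 ± 0.78% joined, 66.5 ± 9.3% partial and 17.0 ± 19.1% absent. Where at least 2 members of a run were found, which was so for 221, 152 and 55 runs, joining affected 2.26%, 2.63% and 1.82% of them. No peak of any replicate touched more than 2 members. The opposite, 1 member split between at least 2 replicate peaks, occurred for 16, 9 and 4 members. No count of split regions outside runs stands beside these, so they are not read as a trait of runs.

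**Figure D4:**
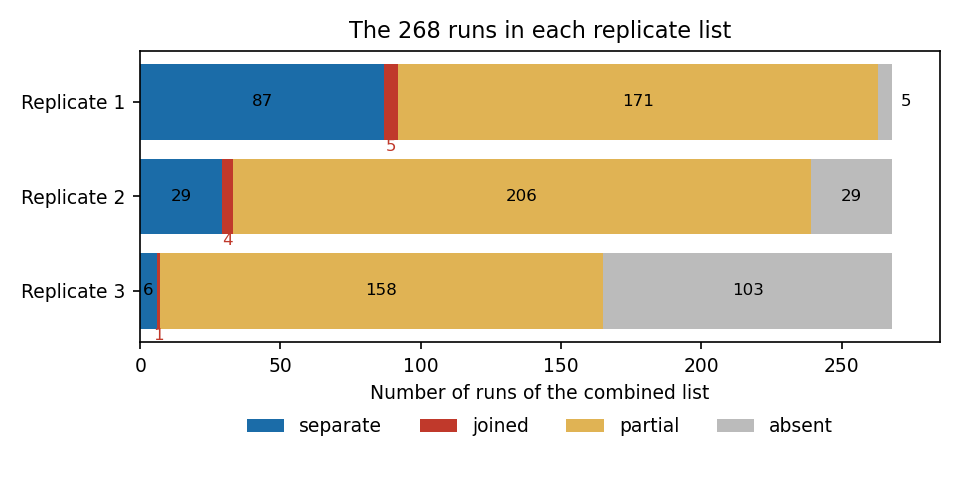
Number of runs (horizontal axis) that were separate, joined, partial or absent in each replicate list. Joined runs are the thin red strips of 5, 4 and 1 runs, and the absent class grows from 5 runs in replicate 1 to 103 in replicate 3, the shortest list.

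Joining was never seen at the same run in more than 1 replicate, and 10 runs were affected in all. In replicate 1 these were the runs on I from 9110659 to 9116397, on V from 9218183 to 9221282, and on X from 2438848 to 2441836, from 8995007 to 8998065 and from 15724939 to 15726832. Replicate 2 joined members on I from 8133424 to 8136025 and in the run of 6 on I already described, and on III from 5823296 to 5824996 and from 13548439 to 13550224. Replicate 3 did so on II from 6149552 to 6153642. These 10 were listed after their values were seen.

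Best-scored members of runs were found more often than the other members. The leading member of a run by combined rank was found for 262 of 268 runs in replicate 1 (97.8%), 229 in replicate 2 (85.4%) and 160 in replicate 3 (59.7%). Of the 655 other members, 393 (60.0%), 243 (37.1%) and 74 (11.3%) were found. All 3 replicates held 156 of the leading members and 65 of the others. When a replicate had just 1 member of a run, it was the leading one in 41 of 42 runs, 78 of 87 and 105 of 110. Where at least 2 were found without joining, the best-ranked replicate peak was at the leading member in 201 of 216 runs, 131 of 148 and 40 of 54. Over all regions under 1500 bp the shares found were 72.7%, 51.9% and 28.7%. Outside runs the share found also fell with rank. It was 100%, 94.0% and 44.1% in replicates 1, 2 and 3 for regions ranked 1965 to 3702. For ranks 5421 to 7129 it was 57.7%, 10.4% and 0.66%. No comparison of leading members with regions of like rank outside runs was made. The combined and replicate lists come from the same samples, so these counts describe the lists and carry no test.

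Separate calls became rarer with the length of the run. Of the 188 runs of 3, 66 were separate in replicate 1 (35.1%), 27 in replicate 2 and 5 in replicate 3. Among the 54 runs of 4 the counts were 15 (27.8%), 2 and 1, and among the 26 longer runs 6 (23.1%), 0 and 0. A longer run has more members that must all be found, and the share of members found differed little by length, at 70.7%, 71.3% and 71.3% in replicate 1 for runs of 3, of 4 and of 5 or more.

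At least 1 replicate kept 93 runs separate, at least 2 replicates kept 23, and all 3 kept 6. Those 6, in order of median rank, were the following. The run on I from 1066897 to 1070544 had 3 regions of 645, 958 and 1460 bp with combined ranks 1102, 88 and 396. Its middle region ranked 104, 181 and 121 in replicates 1, 2 and 3. On III, regions of 831, 833 and 577 bp from 1923179 to 1926898 had combined ranks of 1055, 708 and 526, and the last ranked 436, 420 and 344 in the replicates. On II the run from 6705560 to 6709915 had a middle region of rank 400, with ranks 469, 486 and 527, and outer regions of rank 1716 and 1061. On V, the run from 5580061 to 5584906 had its best region first, at rank 1045, and gaps of 880 and 982 bp. The other run on V, from 20705561 to 20709304, had 3 regions of close rank, 1729, 1971 and 2167, and called regions covered 87.0% of its span, the highest share of any run. The last of the 6 was the run of 4 on I from 7898871 to 7903499, with gaps of 242, 410 and 931 bp.

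That run of 4 on chromosome I stood apart, in its edges and in its scores, from the other runs with members in all 3 replicates. The left and right edges of its 4 regions differed between the 3 replicates by at most 2, 5, 2 and 3 bp, counting the larger of both edges for each region from left to right. Over the 210 members found in all replicates by 1 peak each, the larger difference had a median of 184.5 bp, and the smallest value outside this run was 19 bp. Elsewhere, 7 of 2099 regions outside runs (0.33%) had both edges within 10 bp. In the combined list the 4 regions ranked 1277, 458, 3812 and 3274. In replicate 1 they ranked 34, 12, 278 and 202, in replicate 2 they ranked 15, 7, 41 and 33, and in replicate 3 they ranked 7, 5, 15 and 10. Placed from 1 to 210 by score among those members, the second region was first in every replicate and 34 in the combined list. The region at 7901616 to 7902088 stood at place 18, 4 and 4 in the replicates and at 206 in the combined list. No member of another run lost more than 22 places from its worst replicate place to the combined one, against 33 to 188 for these 4. Leaving this run out, 86, 28 and 5 runs were separate in replicates 1, 2 and 3, and 5 in all 3. The strain carries added UNC-55a and dpy-20 sequence in its transgene, per the labels. Whether these 4 regions belong to such sequence rather than to binding at their own site was not tested, since no annotation of this build was at hand, and the counts without this run do not depend on it.

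**Figure D5:**
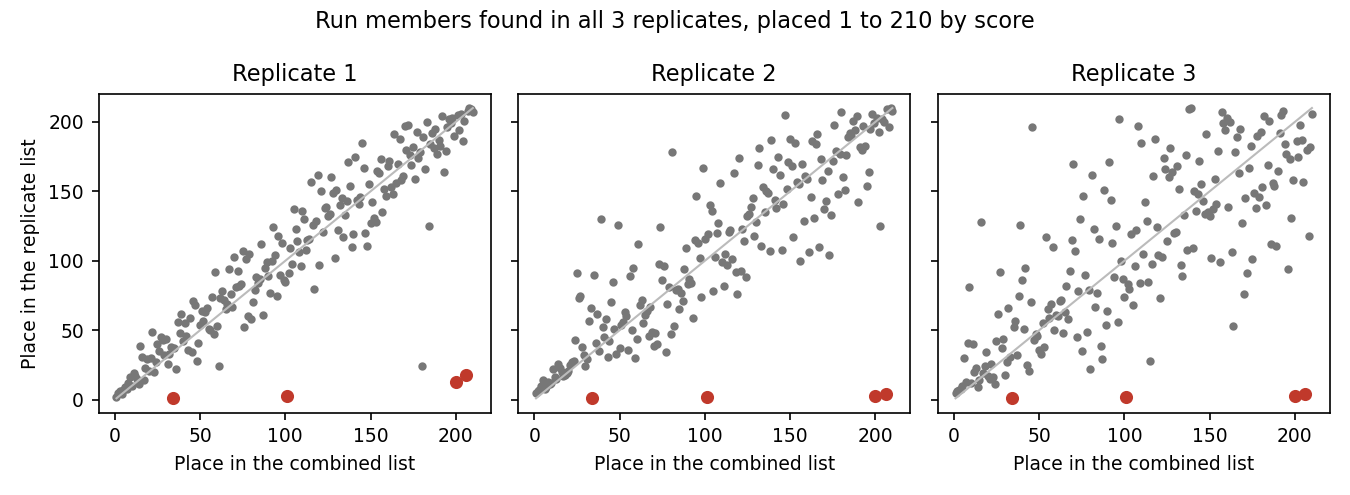
Place from 1 to 210 by score in each replicate list (vertical axis) against place in the combined list (horizontal axis), for the 210 run members found in all 3 replicates by 1 peak each. Grey points are members of other runs, the grey line marks equal places, and the 4 red points are the sharp-edged run of 4 on chromosome I, at places 34 to 206 in the combined list and 1 to 18 in the replicates.

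Runs were also rebuilt from each replicate list by the same rule. Replicate 1 gave 150 runs, replicate 2 gave 59 and replicate 3 gave 17, holding 7.51%, 3.94% and 1.94% of the peaks under the width limit. With the best 2803 peaks of each list the numbers were 15, 9 and 17, so the order by list length was lost. A run of replicate 1 shared at least 1 bp with 96 of the 268 combined runs (35.8%), of replicate 2 with 39 (14.6%) and of replicate 3 with 6 (2.24%). By this overlap of at least 1 bp, 161 combined runs met a run in no replicate, 77 in 1, 26 in 2 and 4 in all 3. The 4 were the run of 3 on I from 1066897 to 1070544, the sharp-edged run of 4 on I, the run on V from 20705561 to 20709304 and a run of 5 on X from 8154448 to 8160469. The overlap can be partial: the run on X met a run of 3 peaks from 8154576 to 8157422 in replicate 3.

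A share of the replicate runs lay at broad regions of the combined list. In replicate 1, 96 of 150 runs (64.0%) overlapped a combined run, 48 (32.0%) overlapped a combined region of 1501 bp or more, 7 did both and 13 did neither. In replicate 2, 39 of 59 (66.1%) overlapped a combined run and 18 (30.5%) a broad region, with 2 doing both and 4 neither. In replicate 3, 6 of 17 (35.3%) overlapped a combined run and the other 11 (64.7%) a broad region. No such shares for replicate peaks outside runs stand beside these, so they are not read as a trait of replicate runs. Fewer combined regions than replicate peaks lay under 61 of the 150 runs of replicate 1 (40.7%), 27 of 59 (45.8%) and 12 of 17 (70.6%). At most 1 combined region lay under 7, 3 and 7 of them. The longest replicate runs were 2 of 8 peaks in replicate 1, both on V. One, from 8164373 to 8172485, lay over 4 combined regions including a broad one of 4864 bp and over no combined run. The other, from 10832320 to 10840218, lay over 5 combined regions including a broad one of 3340 bp. In the combined list, 20 runs (7.46%) had an excluded broad region within 1000 bp of either end. The same share for regions outside runs was not counted, so this value cannot be read as high or low.

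Runs were found on every chromosome. Chromosome V had 52, II 50, III 48, I 46, X 46 and IV 26. As a share of the regions under the limit on each chromosome, members made up 12.2% on V, 12.2% on II, 11.3% on III, 11.0% on I, 10.4% on X and 7.35% on IV, against 10.8% over all. The low value on IV goes with the lowest recovery of its members, at 58.6%, 40.2% and 11.5% in replicates 1, 2 and 3. Regions of IV outside runs were found at 66.5%, 41.0% and 14.0%. On II, members were found at 67.8%, 47.1% and 24.7%, below the 77.2%, 55.8% and 35.2% of other regions there, while on V the values were 75.8%, 57.9% and 30.9% against 72.4%, 51.6% and 31.1%. Regions are not independent samples, so these differences between chromosomes carry no test.

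Along the autosomes, 494 of 756 members (65.3%) lay in the central 50% of the chromosome, against 59.0% of all autosomal regions under the limit. Counted as runs, 143 of 222 (64.4%) were central. The rule selects places where regions lie close together, so these shares are a description with no interval or test. The share of members was highest on V, at 70.8% against 64.1% of regions, and lowest on IV, at 42.5% against 53.3%. On X it was 53.3% against 48.0%. In bins of 1 Mb, 9 runs each lay on II from 10 to 11 Mb and on III from 13 to 14 Mb, and 8 on I from 9 to 10 Mb. The median of the 101 bins that held any region was 2. In the bin of III members made up 31.8% of the 88 regions, and in that of II 26.8% of 112. No run lay in 14 of these bins. Neighbouring runs were a median of 209 kb apart, and the closest pair was separated by 1156 bp.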

How the data were processed

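Per the file headers, the deposited lists are PeakSeq binding sites on the WS220 build of WormBase. The score column holds the caller's p-value or q-value, at most 0.001 in each deposited list, and the sources used here do not give whether it is adjusted, the aligner, the thresholds or how replicates were pooled. Positions count from 1 with both ends included. Regions were ranked within a list by this value and, where tied, by peak number. The members, rule and comparisons were chosen with earlier results of these data known. Regions named are the 10 runs with most members, the run with most members on each chromosome, the 10 with the best-ranked member, the runs separate in all 3 replicates and the widest run. Others were named after their values were seen. Central means 50% of the chromosome, whose length was set by the last peak position over the 4 lists. Shares have exact (Clopper-Pearson) 95% intervals, and the replicate is the unit of the sign-flip permutation test. Run and overlap code was tested on simulated data and had 0 differences from bedtools. Alternatives changed the joining distance, width limit, overlap, share of each list and replicates. Inputs had no list analysed here. Tools were bedtools 2.31.1 and Python 3.11.15 with SciPy 1.17.1, pandas 2.3.3, numpy 2.4.6 and matplotlib 3.10.9.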

Additional observations from a re-analysis of the deposited data

How the results depend on the processing

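Of 68 values under alternatives, 49 stayed within the allowed range, whose limits are not given here, and 19 moved. Most were counts, shares or ranks, which cannot change sign, so only the difference in share found could change direction. Joining at 500 bp gave 81 runs with 266 members and a mean of 19.7 runs per replicate list, and joining at 2000 bp gave 560 runs with 2065 members, a mean of 175 runs per replicate list and a central share of 61.5%. A width limit of 1000 bp left 600 members of median rank 5348.5, and no width limit gave members of median rank 4515. The better-scored 50% of the combined list held 37 runs with 119 members of median rank 2131. There 81.5% of members were found and 64.0% of runs were separate on average, since this 50% holds fewer and stronger regions by construction. Its members had a central share of 57.9%, below the 59.0% of all autosomal regions under the limit. No central share of all regions in that 50% stands beside it. With the better-scored 50% of each replicate list, 23.6% of members were found and the mean share of separate runs fell from 15.2% to 1.99%, a change within 1 SD of the replicates. Equal lists gave a mean of 13.7 runs per replicate. Leaving out 1 replicate moved the mean number of rebuilt runs from 75.3 to between 38.0, without replicate 1, and 104.5, without replicate 3, the mean share of members found to between 38.2% and 61.1%, that of separate runs to between 6.53% and 21.6% and that of joined runs to between 0.93% and 1.68%. The difference in share found, as a mean over the replicates, stayed below 0, between -6.81 points with a width limit of 1000 bp and -0.16 points with no width limit, with an exact sign-flip permutation p between 0.25 and 0.75. In replicate 2 alone it rose above 0 with joining at 500 bp (0.73), with no width limit (0.73), with the better-scored 50% of combined regions (0.96) and within rank classes (0.77). Alternatives for ranks, for the central share and within rank classes or against regions with no neighbour were chosen after seeing the data. No paired analysis was possible because the inputs, which share replicate numbers with the ChIP samples, had no list analysed here.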

Other observations

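The combined list holds no region from 10 to 11 Mb of chromosome IV, so it can hold no run there. Rebuilt from the replicate lists, this stretch held 1 run in replicate 1 and 0 in replicates 2 and 3. The run of replicate 1 lay from 10935359 to 10937215, comprised 3 peaks over 1857 bp, and its best peak ranked 887 of 6805.

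Members found in all 3 replicates were ordered by score much as other such regions were. Without the 4 sharp-edged regions on chromosome I, Spearman's rho between combined and replicate ranks was 0.95, 0.90 and 0.78 over 206 members in replicates 1, 2 and 3, against 0.96, 0.91 and 0.77 over 2099 other regions. With those 4 it was 0.90, 0.85 and 0.73 over 210 members. These values are across regions, which share libraries, and they describe the lists without a test. The larger edge difference between replicates was wider for members, at a median of 187.5 bp without the 4 and 184.5 bp with them, against 112 bp for the other regions. Over all regions under the limit, members were also wider, at a median of 494 bp against 411 bp. Edges were not compared at equal width, so the difference cannot be told apart from one of width.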
